A study of Capra hircus with 6 samples.

Results

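The genes described here encode the glycoproteins and proteoglycans of the extracellular matrix, the enzymes that hydroxylate and crosslink collagen, and the integrins that hold cells to the matrix. They were chosen by name from a list of 49 genes, of which 43 had a row in the deposited table of 27271 genes. ELN, FBLN2, SDC3, GPC6, ITGA5 and ITGB3 were not analysed here because no row carried those names. The 43 genes comprised 17 glycoproteins, 11 proteoglycans, 8 enzymes and 7 integrin subunits. RNA-seq was carried out on primary intramuscular preadipocytes from the longissimus dorsi of goats 3 days old. The cells were labelled WT and received a negative control siRNA in the NC groups (NC, n = 3 libraries). In the LIPG knockdown groups they received an siRNA against LIPG, endothelial lipase (Si-LIPG, n = 3 libraries). Both groups were treated for adipose differentiation, with 50 μmol/L oleic acid for 48 h after transfection. The study's methods call its replicates biological, but neither they nor the labels say whether the 3 libraries of a group came from separate animals or separate wells, so the p values measure the spread between these libraries, which may be technical.

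In fat and muscle, preadipocytes are a main source of the extracellular matrix around them. Fibronectin, laminins, nidogens and fibrillins form its fibres and basement membranes, small leucine-rich proteoglycans such as decorin and lumican bind collagen fibrils and set their spacing, and syndecans and glypicans carry heparan sulfate chains on the cell surface. Prolyl and lysyl hydroxylases modify collagen chains in the endoplasmic reticulum, lysyl oxidases crosslink the secreted fibres, and integrins are pairs of one α and one β subunit that bind matrix proteins. Preadipocytes are known to remodel a fibronectin-rich matrix towards a basement membrane as they become adipocytes.

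Reads counted on genes were 524776 to 1051230 per library, out of 36451898 to 52638817 reads in all. They made up 1.31% ± 0.279 (SD, n = 3) of the reads in the NC libraries and 2.44% ± 0.566 (SD, n = 3) in the Si-LIPG libraries, with no overlap (p = 0.1 by a two-sided exact permutation test, the lowest value possible for 3 libraries against 3). Reads on no gene were 91.6% to 93.7%. The libraries were made with dUTP, which marks one cDNA strand, and the strand setting of the counting is not given in the sources used here. The mitochondrial gene ND6 lies on the opposite strand to its neighbour ND5, and its counts per kb were 28.1 to 44.2 times those of ND5 in the NC libraries and 14.8 to 24.7 times in the Si-LIPG libraries. Sense and antisense reads cannot be told apart for any gene below, and the part of this in the levels and in the differences was not tested. LIPG itself had raw counts of 0, 2 and 0 for NC, against 0, 2 and 2 for Si-LIPG. All lay within the 3 counts that a count of 0 allows. At this depth LIPG could therefore check neither the knockdown nor the direction of the labels. With DESeq2 at the study's thresholds, 629 genes were higher and 1064 lower in the Si-LIPG libraries as labelled. In the paper's comparison of Si-LIPG with NC, 1064 is instead the number of upregulated genes, the larger of its counts. Whether the labels or the paper's direction are reversed was not tested, and every direction below rests on the labels. NC 1 stood apart, with the lowest share of reads on genes (0.997%) and the lowest TMM factor (0.601, against 0.927 to 1.37 in the other libraries). Fibroblast and preadipocyte markers were present, with a summed TMM-normalized CPM (counts scaled to a common library size, with composition adjusted by the trimmed mean of M values) of 22168 to 29968 in the NC libraries and 30967 to 37473 in the Si-LIPG libraries over 8 of 9 listed genes. The collagen genes COL1A1 and COL1A2 made up most of this sum, with NC means of 11312.2 and 11362.5. PDGFRA, PDGFRB and THY1 had NC means of 111, 90.2 and 79.0. Of the 8 genes 6 had a positive and 2 a negative log2 fold change, and 0 were higher at the criterion used below. Of 5 endothelial markers, CDH5, KDR and TEK were at 0 in every library and the summed level did not exceed 7.20.

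The members made up a sizeable part of what was counted. They took 3.51, 7.16 and 6.68% of the reads on genes for NC 1 to 3, against 9.35, 9.31 and 9.57% for Si-LIPG 1 to 3. The groups did not overlap (p = 0.1, two-sided exact permutation test). FN1 alone, which encodes fibronectin, held 2.34 to 4.73% in the NC libraries and 5.74 to 6.39% in the Si-LIPG libraries. Without FN1 the share of the members was 1.96% ± 0.687 (SD, n = 3) and 3.34% ± 0.334 (SD, n = 3).

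Levels between genes were compared as FPKM, deposited values that are scaled to the gene's length and the library's reads. FN1 had the highest level, with a mean FPKM over the 6 libraries of 6461, which ranked 16 among all genes in the files. THBS1 (thrombospondin 1, mean FPKM 1265), ITGB1 (the shared β1 integrin subunit, 931), SPARC (a collagen-binding glycoprotein, 672) and FBN1 (fibrillin 1, 388) followed. Among proteoglycans the mean FPKM was highest for BGN (biglycan, 179), and among the enzymes for LOXL2 (a lysyl oxidase, 239). The α subunits of integrins were far lower than ITGB1, from 0.713 for ITGA2 to 16.7 for ITGAV. At the low end, FBLN1, fibulin 1, had raw counts of 1, 8 and 20 for NC 1 to 3, against 5, 3 and 7 for Si-LIPG 1 to 3, and ITGA2 had between 0 and 4, so that neither passed the filter on low counts.

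**Figure D1:**
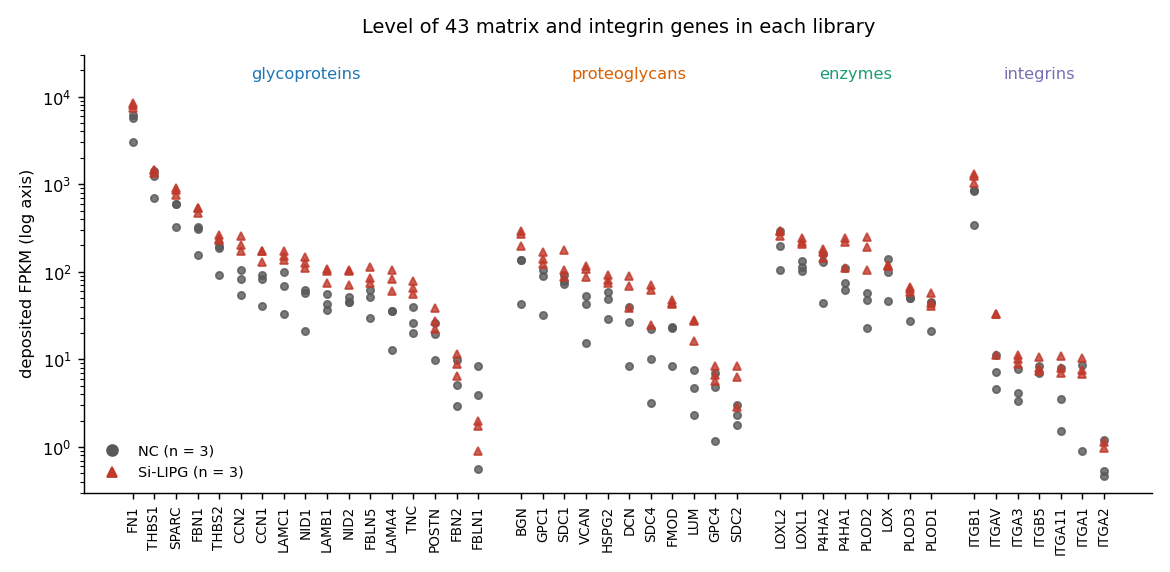
Deposited FPKM (vertical, log axis) of the 43 members found in the files, grouped by role and ordered by mean level, with NC libraries as circles and Si-LIPG libraries as triangles. FN1 lay highest and ITGA2 lowest, and values of 0 (ITGA1 and ITGB5 in NC 1, ITGA2 in Si-LIPG 3) are not drawn.

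The question of the comparison was which of these genes differ when LIPG is silenced. After TMM normalization, 12 of the 41 tested members were higher in the Si-LIPG libraries at the criterion used here (edgeR's quasi-likelihood test with the study's thresholds, p under 0.05 before adjustment and a fold over 1.5), and 0 were lower. Among all 6574 tested genes 7.83% were higher and 12.9% lower at this criterion. No member was lower at an unadjusted p under 0.05 with edgeR, and none with DESeq2. Two-sided p values adjusted by Benjamini-Hochberg over all tested genes were under 0.05 for 2 members, LUM and PLOD2, both higher, against 0.974% of the tested genes that were higher and 5.54% that were lower at that threshold. The median log2 fold change was 0.44 over the 41 members and 0.16 over all tested genes. A positive log2 fold change was found for 37 of the 41, against 58.4% of the tested genes. The Si-LIPG libraries were all above the NC libraries for 16 members, against 15.2% of the tested genes, and all below for 0, against 13.4%. Without Si-LIPG replicate 2 or 3 the number of members higher at the criterion was 5 and 7, against 3.49% and 3.59% of all genes tested in those fits. Without NC replicate 1 it was 9, against 7.93% of the genes, with 1 member lower, against 8.95% (FBLN1, which passed the filter on low counts in that fit, log2 fold change -2.38, SE 0.93, adjusted p = 0.204 from edgeR). After a correction for gene length 7 members were higher, against 5.81% of the genes. Members also had higher counts than the tested genes, with a median of the mean counts of 233.7 against 27.58. They were also chosen with earlier results of these data known. The part of either in the number called was not tested. In bulk libraries, fewer cells of a type and less RNA per cell cannot be told apart.

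By role, 6 of 11 tested proteoglycans, 4 of 16 glycoproteins, 1 of 8 enzymes and 1 of 6 integrin subunits were higher at the criterion. The median log2 fold change was 0.77 for the proteoglycans, 0.41 for the glycoproteins, 0.47 for the integrins and 0.0462 for the enzymes, the only role with a median under that of all tested genes. Differences between the roles were not tested.

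**Figure D2:**
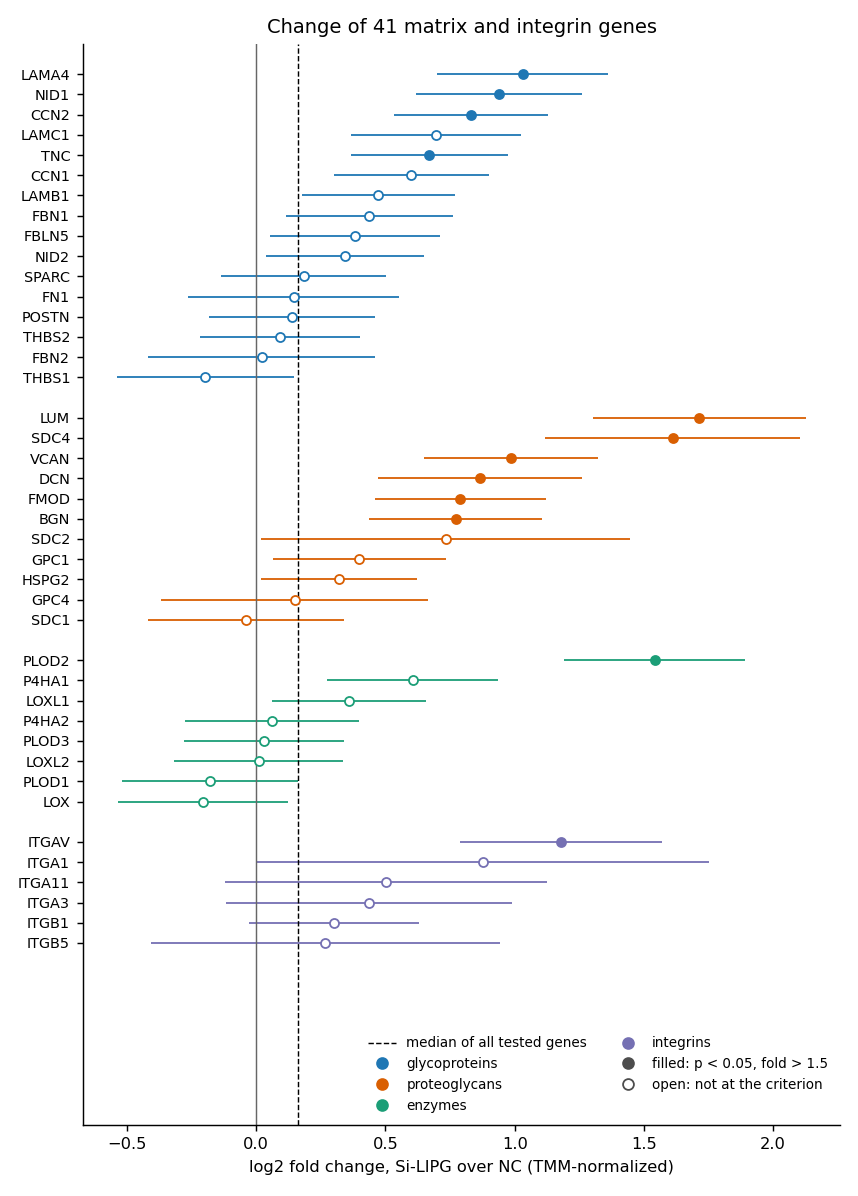
Log2 fold change of Si-LIPG over NC (horizontal, points with bars of ± 1 SE, edgeR after TMM normalization) for the 41 tested members, grouped by role. Filled points mark the 12 members at the criterion, all to the right of the dashed line at 0.16, the median of all tested genes.

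Among the glycoproteins, those at the criterion were LAMA4, NID1, CCN2 and TNC, while the most abundant ones showed no such difference. LAMA4 encodes the laminin α4 chain, found in the basement membrane of fat and muscle cells and small vessels. Its TMM-normalized CPM was 126, 223 and 230.1 for NC 1 to 3, against 338, 488 and 368 for Si-LIPG 1 to 3, with means going from 193 ± 58.0 (SD, n = 3) to 398 ± 79.2 (SD, n = 3) (log2 fold change 1.03, SE 0.33, adjusted p = 0.0763 from edgeR). NID1, nidogen 1, which links laminin to collagen IV, was at 136, 252 and 238 for NC, against 409.6, 438 and 363 for Si-LIPG (log2 fold change 0.94, SE 0.32, adjusted p = 0.0953 from edgeR). CCN2, also known as connective tissue growth factor, was at 292, 286 and 364 for NC, against 539, 513 and 626 for Si-LIPG (log2 fold change 0.83, SE 0.30, adjusted p = 0.113 from edgeR). TNC, the anti-adhesive glycoprotein tenascin C, was at 318, 396 and 266 for NC, against 511, 580.1 and 468 for Si-LIPG (log2 fold change 0.67, SE 0.30, adjusted p = 0.226 from edgeR). The groups did not overlap for any of the 4, and NC 1 was the lowest library for LAMA4 and NID1. Their adjusted p was at least 0.0763, so the 4 rest on the unadjusted criterion. LAMA4 and NID1 left the criterion without Si-LIPG replicate 2 (log2 fold changes 0.86 and 0.88, adjusted p = 0.402 and 0.391 from edgeR), CCN2 left it without NC replicate 2 or Si-LIPG replicate 3, and of the fits without 1 library TNC kept it in those without NC replicate 1 or 2. Across the fits without 1 library, the log2 fold change was 0.76 to 0.96 for CCN2 and 0.54 to 0.84 for TNC. Both also left the criterion after the length correction (0.62 and 0.43), and TNC with DESeq2 size factors (0.62).

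FN1 was at 39894, 51290 and 48875 for NC 1 to 3, against 62339.9, 45944 and 46612 for Si-LIPG 1 to 3 in TMM-normalized CPM, and the groups overlapped (log2 fold change 0.15, SE 0.41, adjusted p = 0.888 from edgeR). THBS1 was at 6572, 8409.9 and 7615 for NC, against 7159, 6491 and 6067 for Si-LIPG, the only glycoprotein with a negative value, which turned positive with library sizes alone or all reads as the scale (log2 fold change -0.20, SE 0.34, adjusted p = 0.806 from edgeR). SPARC was at 2762, 3228 and 3248 for NC, against 3619.7, 3582 and 3298 for Si-LIPG, without overlap but with a small difference (log2 fold change 0.18, SE 0.32, adjusted p = 0.806 from edgeR). On this scale the 3 most abundant glycoproteins thus lay within 0.20 of 0 on the log2 scale. The other laminin chains were closer to the criterion, with log2 fold changes ± SE of 0.70 ± 0.33 for LAMC1 and 0.47 ± 0.30 for LAMB1. CCN1, a matricellular relative of CCN2, had 0.60 ± 0.30, a fold change of 1.52 with an adjusted p = 0.276 from edgeR. The elastic fibre genes FBN1 and FBLN5 had 0.44 ± 0.32 and 0.38 ± 0.33, and the basement membrane gene NID2 had 0.34 ± 0.31. POSTN (periostin), THBS2 and FBN2 had 0.14 ± 0.32, 0.0911 ± 0.31 and 0.0207 ± 0.44.

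The proteoglycans at the criterion comprised the 4 small leucine-rich proteoglycans among the members, the large proteoglycan versican and 1 of the 3 measured syndecans. LUM (ENSCHIG00000023831), lumican, which binds collagen fibrils and helps to set their diameter, had raw counts of 6, 14 and 26 for NC 1 to 3, against 68, 133 and 144 for Si-LIPG 1 to 3. Its TMM-normalized CPM rose from a mean of 28.5 ± 11.1 (SD, n = 3) to 96.8 ± 17.4 (SD, n = 3), with a fitted fold of 3.28 (log2 fold change 1.71, SE 0.41, adjusted p = 0.0395 from edgeR). DCN, decorin, was at 58.4, 117 and 179.7 for NC, against 152, 292 and 215 for Si-LIPG (log2 fold change 0.87, SE 0.40, adjusted p = 0.228 from edgeR). It was the only one of the 6 whose groups overlapped, with Si-LIPG 1 below NC 3. BGN, biglycan, was at 178, 362 and 372 for NC, against 472, 534 and 562 for Si-LIPG (log2 fold change 0.77, SE 0.34, adjusted p = 0.198 from edgeR), and FMOD, fibromodulin, at 71.3, 122 and 129 for NC, against 216, 170.3 and 181 for Si-LIPG (log2 fold change 0.79, SE 0.33, adjusted p = 0.178 from edgeR). In all 4 genes NC 1 was the lowest library.

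VCAN, versican, a hyaluronan-binding proteoglycan of loose matrix, was at 272, 593 and 495 for NC 1 to 3, against 882, 901 and 922 for Si-LIPG 1 to 3 (log2 fold change 0.99, SE 0.34, adjusted p = 0.0939 from edgeR). The Si-LIPG libraries lay close together and the NC libraries spread over a wide range. SDC4, syndecan 4, a heparan sulfate proteoglycan of focal adhesions, had raw counts of 4, 32 and 17 for NC 1 to 3, against 52, 148 and 178 for Si-LIPG 1 to 3, and its TMM-normalized CPM went from 32.5 ± 22.9 (SD, n = 3) to 103 ± 38.8 (SD, n = 3) (log2 fold change 1.61, SE 0.49, adjusted p = 0.0620 from edgeR). After normalization NC 2 (57.6) and Si-LIPG 1 (58.7) were nearly equal, so only a narrow gap separated the groups. SDC1 was at 146, 73.9 and 81.9 for NC, against 80.1, 78.2 and 129 for Si-LIPG (log2 fold change -0.0396, SE 0.38, adjusted p = 0.969 from edgeR), and the glypican GPC1, a lipid-anchored heparan sulfate proteoglycan, at 90.8, 164 and 197 for NC, against 199.7, 186 and 218 for Si-LIPG (log2 fold change 0.40, SE 0.33, adjusted p = 0.563 from edgeR). Both overlapped between the groups. The other values were 0.73 ± 0.71 for SDC2, 0.32 ± 0.30 for HSPG2 (perlecan) and 0.15 ± 0.52 for GPC4 as log2 fold change ± SE. LUM, VCAN and SDC4 kept the criterion without any one of the 6 libraries, at 1.52 to 2.08, 0.71 to 1.23 and 1.28 to 2.28, with adjusted p values of up to 0.346 from edgeR. DCN lost it without NC replicate 1 or 2 or Si-LIPG replicate 2 or 3 (0.54 to 1.29), and BGN (0.49 to 0.94) and FMOD (0.57 to 0.94) without NC replicate 1 or any one Si-LIPG replicate. All 3 also lost it after the length correction (0.67, 0.64 and 0.60), and DCN with DESeq2 size factors (0.83) and in limma on log2(FPKM + 0.1) (1.57).

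**Figure D3:**
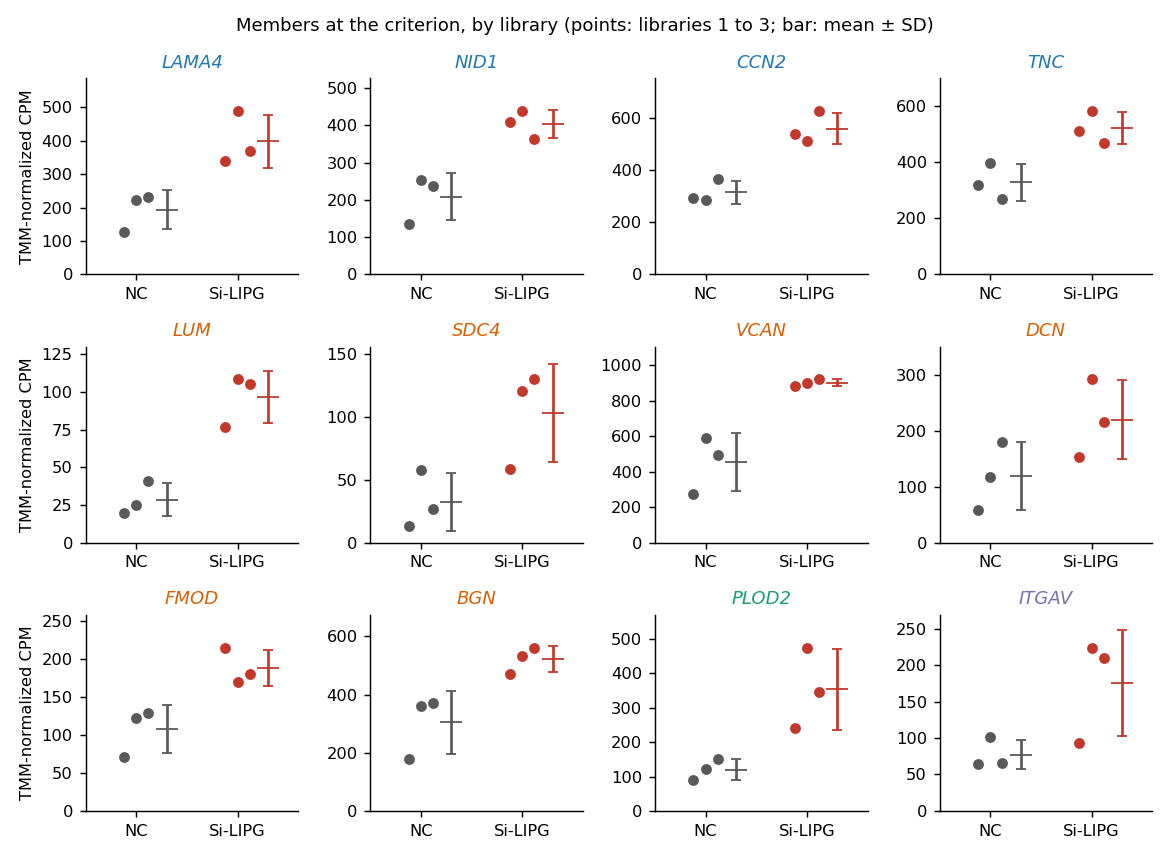
TMM-normalized CPM (vertical, from 0) of the 12 members at the criterion, with one point per library (1 to 3 from left to right) and the mean ± SD beside them. The Si-LIPG libraries lay above the NC libraries in all panels except DCN and ITGAV, where one Si-LIPG library fell among the NC values.

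Of the enzymes that act on collagen, PLOD2 (ENSCHIG00000018266) was the only one at the criterion. It encodes a lysyl hydroxylase that acts on the telopeptides of collagen, a step before stable crosslinks form. Its raw counts were 28, 67 and 95 for NC 1 to 3, against 214, 583 and 472 for Si-LIPG 1 to 3. As TMM-normalized CPM it was at 90.8, 121 and 149.7 for NC, against 241, 475 and 345 for Si-LIPG, and the mean rose from 120.4 ± 29.5 (SD, n = 3) to 354 ± 117 (SD, n = 3), with a fitted fold of 2.91 (log2 fold change 1.54, SE 0.35, adjusted p = 0.0395 from edgeR). Every Si-LIPG library was well above every NC library. PLOD2 kept the criterion without any one of the 6 libraries, at 1.27 to 1.73 on the log2 scale, with an adjusted p between 0.00860 and 0.253 from edgeR. The related PLOD1 and PLOD3 had -0.18 ± 0.34 and 0.0311 ± 0.31 as log2 fold change ± SE.

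The lysyl oxidases, which crosslink collagen and elastin, were not at the criterion. LOXL2 was at 577, 1038 and 706 for NC, against 935, 756 and 648 for Si-LIPG (log2 fold change 0.00905, SE 0.33, adjusted p = 0.991 from edgeR). LOXL1 was at 308, 258 and 224 for NC, against 362, 344 and 302 for Si-LIPG (log2 fold change 0.36, SE 0.30, adjusted p = 0.557 from edgeR), and LOX had -0.21 ± 0.33. The groups overlapped for all 3. P4HA2, a catalytic subunit of prolyl 4-hydroxylase, was at 175, 322 and 418 for NC, against 326, 314 and 322 for Si-LIPG (log2 fold change 0.0614, SE 0.34, adjusted p = 0.946 from edgeR). Its relative P4HA1 had 0.60 ± 0.33, a fold change of 1.52, with an adjusted p = 0.326 from edgeR.

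Among the integrins, ITGAV, the αV subunit of receptors for vitronectin and fibronectin, was the only one at the criterion. Its TMM-normalized CPM was 64.8, 101 and 66.2 for NC 1 to 3, against 92.5, 224 and 210.4 for Si-LIPG 1 to 3 (log2 fold change 1.18, SE 0.39, adjusted p = 0.0848 from edgeR). Si-LIPG 2 and 3 were high while Si-LIPG 1 fell below NC 2, so that the groups overlapped. Without Si-LIPG replicate 2 it was no longer at the criterion (log2 fold change 0.96, adjusted p = 0.391 from edgeR). ITGB1, the β subunit that pairs with most of the measured α subunits, was at 1530.4, 2410.0 and 2499 for NC, against 2647, 2747 and 2543 for Si-LIPG (log2 fold change 0.30, SE 0.33, adjusted p = 0.677 from edgeR). The groups did not overlap, but NC 1 was far below the other 5 libraries. ITGA3, a laminin receptor subunit, was at 19.5, 28.8 and 15.8 for NC, against 29.3, 27.7 and 29.9 for Si-LIPG (log2 fold change 0.44, SE 0.55, adjusted p = 0.721 from edgeR). ITGA1 and ITGA11, subunits of collagen receptors, had 0.88 ± 0.87 and 0.50 ± 0.62, and ITGB5 had 0.27 ± 0.68. Counts of ITGA1, ITGA3, ITGA11 and ITGB5 did not exceed 59 in any library, and ITGA1 and ITGB5 were at 0 in NC 1.

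Ratios between related members within a library do not depend on how the libraries are scaled. Over 16 pairs written down after the counts had been seen, the groups did not overlap for 4. The ratio of PLOD2 to PLOD1 in FPKM was 1.07, 1.04 and 1.28 for NC 1 to 3, against 2.37, 6.23 and 3.31 for Si-LIPG 1 to 3, a 3.24-fold difference. Relative to PLOD3 it was 0.813, 0.947 and 1.14 for NC 1 to 3, against 1.66, 3.72 and 3.21 for Si-LIPG 1 to 3, a 2.83-fold difference. PLOD2 was thus level with the other lysyl hydroxylases in the NC libraries and above both in every Si-LIPG library. The ratio of LUM to FMOD was 0.276, 0.208 and 0.320 for NC 1 to 3, against 0.360, 0.643 and 0.587 for Si-LIPG 1 to 3, a 1.95-fold difference. The ratio of THBS1 to THBS2 was 7.71, 7.12 and 6.65 for NC 1 to 3, against 5.78, 6.27 and 5.43 for Si-LIPG 1 to 3, with means of 7.16 ± 0.531 (SD, n = 3) and 5.83 ± 0.422 (SD, n = 3). Each of the 4 had a two-sided exact permutation p = 0.1, which adjustment over the 16 pairs cannot bring lower. For SDC4 to SDC1 the ratio was 0.0346, 0.304 and 0.127 for NC 1 to 3, against 0.285, 0.601 and 0.392 for Si-LIPG 1 to 3, with overlap (exact permutation p = 0.2). The ratio of ITGAV to ITGB1 was 0.0134, 0.0132 and 0.00838 for NC 1 to 3, against 0.0111, 0.0258 and 0.0262 for Si-LIPG 1 to 3, high in Si-LIPG 2 and 3 but not in Si-LIPG 1 (exact permutation p = 0.3). The ratios of DCN to BGN, CCN1 to CCN2 and GPC4 to GPC1 in Si-LIPG were 1.10, 0.862 and 0.939 times those in NC, with overlap in each.

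**Figure D4:**
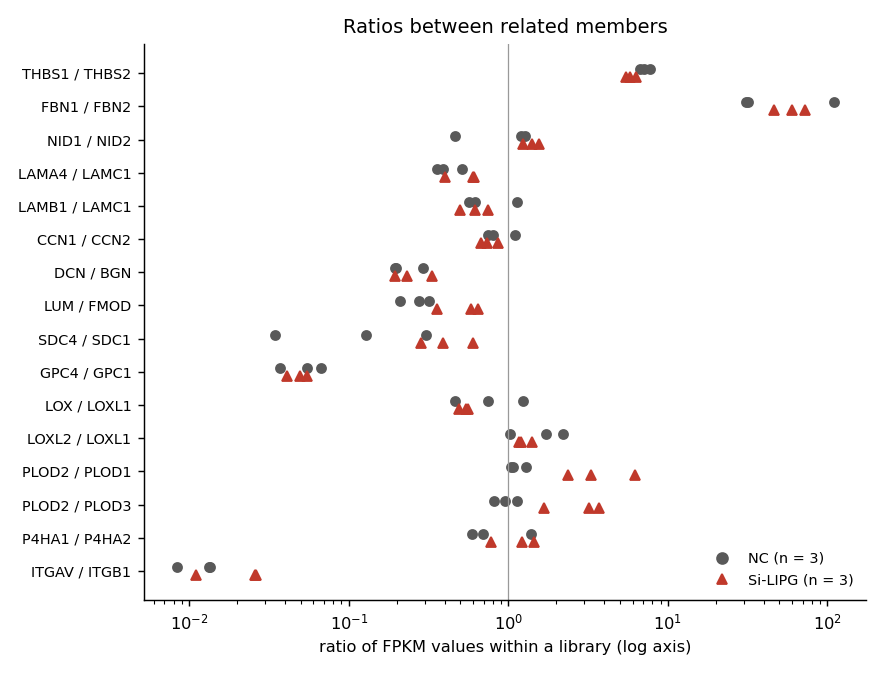
Ratio of the FPKM values of 2 related members within each library (horizontal, log axis), with NC libraries as circles and Si-LIPG libraries as triangles. The groups were separated for PLOD2 to PLOD1, PLOD2 to PLOD3, LUM to FMOD and THBS1 to THBS2, and overlapped for the other 12 pairs.

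The direction of a member depended on the scaling for some genes and not for others. With library sizes alone, 25 of the 41 members were higher at the criterion and 0 lower (24.2% of all tested genes were higher and 6.01% lower). With all reads of a library as the scale, 35 were higher and 0 lower (46.1% and 0.0304% of all tested genes). On that scale the groups did not overlap, with Si-LIPG higher, for 39 of the 41 members, against 51.9% of the tested genes. The 4 members with a negative value after TMM normalization, THBS1, SDC1, LOX and PLOD1, were positive on both scales. Under the scaling to all reads THBS1 had a log2 fold change of 1.18, and PLOD2 and LUM had 2.99 and 3.14. The median over the members moved from 0.44 with TMM to 0.99 with library sizes and 1.83 with all reads, and the median over all tested genes from 0.16 to 0.74 and 1.58. The members therefore lay 0.28, 0.25 and 0.25 above all tested genes on these scales. Members were longer than the tested genes (median length 3918 against 2305 bases), and after a correction for gene length the difference of the medians was 0.21.

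**Figure D5:**
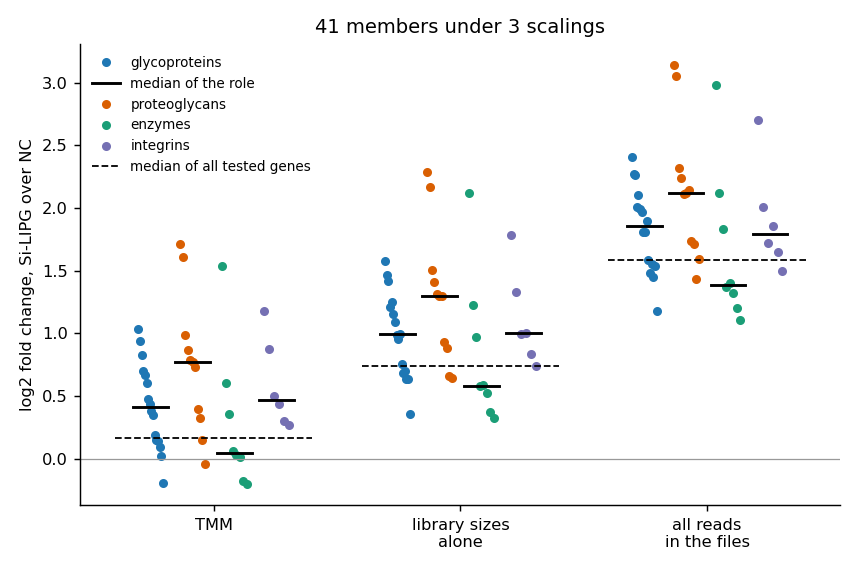
Log2 fold change of Si-LIPG over NC (vertical) of the 41 members under 3 scalings of the counts, coloured by role, with the median of each role (solid) and of all tested genes (dashed). Both medians shifted upwards from TMM to all reads, while the proteoglycans stayed above and the enzymes below the dashed line.

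A wider list of 161 other matrix and adhesion genes, 85 of which were tested, was described in the same way. At the criterion 8 were higher and 6 lower (9.41% higher, near the 7.83% of all tested genes, which were lower in 12.9%), and the median log2 fold change was 0.31, against 0.16 over all tested genes. Of 31 other glycoproteins tested, 4 were higher and 1 lower. SPP1 (osteopontin) had log2 fold change 0.84, SE 0.29, adjusted p = 0.104 from edgeR, LTBP1 (a binding protein of latent TGF-β) had log2 fold change 0.90, SE 0.34, adjusted p = 0.132 from edgeR, and HMCN1 (hemicentin 1) had log2 fold change 0.65, SE 0.30, adjusted p = 0.228 from edgeR. SPON1 (F-spondin) was on the lower side, at log2 fold change -1.23, SE 0.40, adjusted p = 0.0809 from edgeR. Of 10 other proteoglycans, GPC2 (glypican 2) fell, with raw counts of 76, 75 and 74 for NC 1 to 3, against 39, 74 and 49 for Si-LIPG 1 to 3 (log2 fold change -1.81, SE 0.39, adjusted p = 0.0395 from edgeR). OGN (osteoglycin, a further small leucine-rich proteoglycan) had log2 fold change -1.31, SE 0.39, adjusted p = 0.0569 from edgeR, opposite in sign to the 4 small leucine-rich proteoglycans above, and TGFBR3 (betaglycan) had log2 fold change 1.40, SE 0.59, adjusted p = 0.184 from edgeR. The values of SPON1 and OGN became 0.21 and 0.31 when scaled to all reads.

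Of 18 other enzymes of collagen processing, 2 were higher at the criterion, P3H3 (a prolyl 3-hydroxylase, log2 fold change 1.37, SE 0.63, adjusted p = 0.235 from edgeR) and PCOLCE2 (an enhancer of procollagen cleavage, log2 fold change 0.85, SE 0.39, adjusted p = 0.237 from edgeR). Of 26 other integrins and adhesion genes, 1 was higher and 3 lower. VCL (vinculin, which ties integrins to actin) had log2 fold change 0.84, SE 0.37, adjusted p = 0.199 from edgeR. TNS2 (tensin 2), an adhesion adaptor, had raw counts of 2499, 2002 and 2259 for NC 1 to 3, against 2077, 1453 and 1471 for Si-LIPG 1 to 3, and its normalized level fell by 1.73 on the log2 scale (SE 0.44, adjusted p = 0.0400 from edgeR). TLN2 (talin 2, which activates integrins) had log2 fold change -1.80, SE 0.50, adjusted p = 0.0452 from edgeR, and ITGB7 (a β subunit of leukocyte integrins) had log2 fold change -1.21, SE 0.46, adjusted p = 0.136 from edgeR. Scaled to all reads, the log2 fold changes of TNS2, TLN2 and GPC2 were -0.23, -0.48 and -0.22, and none of the 3 was at the criterion there.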

How the data were processed

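Poly(A) RNA from 3 NC and 3 Si-LIPG libraries was sequenced after dUTP strand marking. Per the submitters' processing notes, the authors used fastp, HISAT2, SAMtools and HTSeq. Their versions, the genome build and the strand setting are not given in the sources used here. The authors deposited raw counts per gene for each library, with rows for reads on no gene (91.6% to 93.7% of all reads), which were kept out of library sizes and tests. They also deposited FPKM values per gene, scaled to gene length and to the reads counted on genes.

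Groups and replicate numbers were taken from the sample titles. Genes were filtered with filterByExpr (6574 tested) and fitted with edgeR 4.0.16 (TMM, quasi-likelihood test, common coefficient of biological variation 40.5%) in R 4.3.3. P values were adjusted by Benjamini-Hochberg over all tested genes. The SE of a log2 fold change is its size divided by the square root of F, which is approximate. Level values are TMM-normalized CPM on the tested genes. The thresholds were the study's, p under 0.05 with a fold over 1.5, where the study named DESeq2 as its tool. Members were matched by gene name, and the members and lists were chosen with earlier results of these data known. Values per library are given for each member at the criterion and for the 3 members of each role with the highest mean FPKM. Other matrix genes are named where the adjusted p was under 0.05, or at the criterion with the smallest p, up to 4 per role. Alternatives were DESeq2 1.42.0, limma 3.58.1 on log2(FPKM + 1) and log2(FPKM + 0.1), other scalings, filters and fold thresholds, a gene length correction, a replicate block and leaving out each library. The steps were tested on simulated data. Libraries of one group differed by more than sampling noise. Reads on genes numbered 524776 to 1051230, and limits from counts cover counting error only.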

Additional observations from a re-analysis of the deposited data

How the results depend on the processing

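The absence of a lower member at the criterion held under every alternative except without NC replicate 1, and the number higher moved with the setting. Against 12 members higher and 2 with an adjusted p under 0.05 in the edgeR fit with TMM, library sizes alone gave 25 and 8, all reads as the scale 35 and 23, and the length correction 7 and 2. DESeq2 gave 5 members with an adjusted p under 0.05, no filter on counts 4, and a minimum of 10 counts in every library 11. A test in limma on log2(FPKM + 1) gave 20 higher and 0 with an adjusted p under 0.05, and on log2(FPKM + 0.1) 17 and 0. A fold threshold of 2 left 5 members, and the share of all tested genes at that threshold is not given here. The share of all tested genes with an adjusted p under 0.05 was 6.51% in the edgeR fit with TMM, 1.87% with library sizes alone, 11.4% with all reads, 4.84% after the length correction, 4.01% with DESeq2, 4.20% with no filter and 25.9% with a minimum of 10 counts, where 33 members were tested. The share higher at the criterion was 22.5% and 17.4% in the 2 tests in limma. Leaving out 1 library at a time gave 5 to 12 members higher, 0 to 1 lower and 0 to 4 with an adjusted p under 0.05, and no gene of the whole table passed that adjusted threshold without NC replicate 1 or 2 or Si-LIPG replicate 2 or 3.

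Of the other matrix genes, 8 higher and 6 lower in the edgeR fit with TMM, DESeq2 size factors gave 4 higher, library sizes alone 36 higher and 3 lower, all reads as the scale 59 and 0, no filter 12 and 10, a minimum of 10 counts 18 higher, the length correction 2 higher, limma on log2(FPKM + 1) 25 and 2, and limma on log2(FPKM + 0.1) 21 and 2. Of all tested genes, 7.07% were higher with DESeq2 size factors, 14.9% with a minimum of 10 counts and 5.81% after the length correction. Higher and lower shares were 24.2% and 6.01% with library sizes, 46.1% and 0.0304% with all reads, and 6.7% and 7.06% with no filter. They were 22.5% and 4.34% in limma on log2(FPKM + 1), and 17.4% and 4.12% on log2(FPKM + 0.1). Without 1 library the numbers were 0 to 9 higher and 4 to 9 lower. In those fits 3.49% to 9.87% of the tested genes were higher and 8.95% to 13.3% lower.

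Log2 fold changes that changed sign were small after TMM normalization, apart from those of SPON1, OGN and ITGB7. The 4 negative members became THBS1 0.36, SDC1 0.64, LOX 0.32 and PLOD1 0.38 with library sizes alone, THBS1 1.18, SDC1 1.59, LOX 1.11 and PLOD1 1.2 with all reads, THBS1 0.0628, SDC1 0.27, LOX 0.0370 and PLOD1 0.0749 with a minimum of 10 counts, THBS1 0.40, SDC1 0.54, LOX 0.44 and PLOD1 0.41 in limma with a pseudocount of 1 and THBS1 0.40, SDC1 0.55, LOX 0.44 and PLOD1 0.42 with 0.1. SDC1 was 0.0200 with upper quartile scaling and 0.0718 with no filter. With all reads, SPON1 0.21, OGN 0.31 and ITGB7 0.27 turned positive. DESeq2 size factors gave FBN2 -0.0285, LOXL2 -0.0289 and PLOD3 -0.00894, and the length correction FN1 -0.0783, SPARC -0.0303, THBS2 -0.12, POSTN -0.0820, FBN2 -0.22, GPC4 -0.0459, LOXL2 -0.18, PLOD3 -0.13 and P4HA2 -0.0531. Without 1 library, the values ranged over -0.0603 to 0.18 for THBS2, -0.0374 to 0.34 for POSTN, -0.29 to 0.28 for SDC1, -0.20 to 0.60 for GPC4, -0.20 to 0.28 for LOXL2, -0.13 to 0.16 for PLOD3, -0.23 to 0.35 for P4HA2, -0.25 to 0.71 for ITGB5, -0.36 to 0.41 for FBN2, -0.42 to 0.0814 for LOX and -0.0673 to 0.24 for FN1. The log2 differences of within-library ratios ranged over -0.00995 to 0.90 for FBN1 to FBN2, -0.45 to 0.0507 for LAMB1 to LAMC1, -0.0764 to 0.33 for DCN to BGN and -0.32 to 0.10 for GPC4 to GPC1. The causes of these changes were not tested. 

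With the replicate number as a block, 15 members were higher and 14 had an adjusted p under 0.05, against 10.4% and 14.1% of all tested genes. Libraries with the same number had deviations from their group means that correlated at 0.210, 0.0639 and 0.105, not all above 0.1, and NC 2 correlated best with Si-LIPG 3, so the numbers were not taken as pairs. Leaving out libraries for the within-library ratios and the library measures was chosen after seeing the data. Depth limits the low members, since counts of LUM, SDC4 and most integrins in NC 1 did not exceed 6.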

Other observations

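Markers of other cell types were examined beside the matrix genes. CNN1 (calponin, of contractile cells) had a TMM-normalized CPM of 136, 184 and 209.6 for NC 1 to 3, against 301, 339.8 and 291 for Si-LIPG 1 to 3 (log2 fold change 0.81, SE 0.31, adjusted p = 0.134 from edgeR). MYH11 (smooth muscle myosin) was at 4105, 1803 and 1819 for NC 1 to 3, against 1363, 759 and 718 for Si-LIPG 1 to 3 (log2 fold change -1.44, SE 0.41, adjusted p = 0.0485 from edgeR), a direction that turned with all reads as the scale (log2 fold change 0.0860). The 4 smooth muscle or pericyte markers, of which RGS5 was at 0 in every library, had a summed level of 7819 to 8294 in NC and 6184 to 8240.1 in Si-LIPG. ACTA2 (smooth muscle actin) held the largest part of this sum outside NC 1 (log2 fold change 0.0987, SE 0.35, adjusted p = 0.910 from edgeR). Summed levels of the 6 myogenic markers were 165 to 276 and 238 to 269.7, and those of the 4 macrophage or leukocyte markers, with PTPRC at 0 throughout, 23.6 to 48.6 and 16.3 to 22.6. DES made up most of the myogenic sum, with a log2 fold change of 0.00875. MYOD1 (log2 fold change 0.89, SE 0.54, adjusted p = 0.388 from edgeR) was higher in every Si-LIPG library. So was PAX7, which was not tested, with raw counts of 0, 0 and 4 for NC, against 8, 12 and 22 for Si-LIPG. The other myogenic markers overlapped between the groups. ENG (endoglin), on the preadipocyte or fibroblast list, had log2 fold change -1.07, SE 0.36, adjusted p = 0.0844 from edgeR and was the only one of its 8 measured genes at the criterion. With all reads as the scale its log2 fold change was 0.44, with Si-LIPG higher in every library. The part of these cell types in the differences of the matrix genes was not tested.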
